A study of Mus musculus with 11 samples.

Results

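Enzymes and carriers that turn glutamine into ammonia and then into glucose were followed in mouse kidney tubules labelled as proximal tubule S3, the last stretch before the thin limb. The 8 genes were chosen by name along the pathway, with earlier results of these data known. They are the glutamine carrier Slc38a3, Glud1, Got1, Pcx, Pck1, Fbp1, G6pc and the glucose-6-phosphate carrier Slc37a4. Each of the 8 had a single probe set annotated with its symbol alone, out of 22180 genes with such a probe set and 41345 probe sets in all. The data were 11 Affymetrix arrays of S3 tubule RNA from mice of strain 129/SvEv, 6 from wild-type mice and 5 from THP -/- mice, which lack Tamm-Horsfall protein (uromodulin, encoded by Umod), and 2 ng of RNA was labelled for each array. Batch 1 held 5 wild-type and 3 knockout arrays and batch 2 held 1 wild-type and 2 knockout arrays. No label states the age or sex of the mice, the way tubules were isolated or whether every array is a different mouse, and the p-values therefore reflect array-to-array spread, which may be technical.

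The proximal tubule takes up glutamine from the blood side through Slc38a3, a sodium-coupled carrier also called SNAT3, and its nitrogen is released as ammonium in mitochondria. Glutamate dehydrogenase, encoded by Glud1, releases ammonium from glutamate and leaves alpha-ketoglutarate, which passes through the citric acid cycle to malate and oxaloacetate. The cytosolic phosphoenolpyruvate carboxykinase Pck1 commits that carbon to glucose, a route known to be raised in metabolic acidosis because it yields bicarbonate for the blood and ammonium for the urine. Pyruvate carboxylase (Pcx) feeds oxaloacetate from lactate and pyruvate, the aspartate aminotransferase Got1 interconverts aspartate and oxaloacetate in the cytosol, and Fbp1, Slc37a4 and G6pc complete the path to free glucose.

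Promoter windows of 3 genes of the last steps (Pck1, Slc37a4 and G6pc) are shown because Pck1 is a textbook target of cyclic AMP signalling, Slc37a4 was the gene closest to it among the 8 across arrays, and G6pc is the enzyme that Slc37a4 supplies. They are RefSeq sequences of build GRCm38.p6, each the 250 bases before an annotated start, 5′ to 3′ on the gene's strand, and capitals mark the letters ACGTCA or its reverse complement, the core of the cyclic AMP response element. The windows are chr2:173152823-173153072 (plus strand) for Pck1, chr9:44396696-44396945 (plus strand, the outermost of 3 annotated starts) for Slc37a4 and chr11:101367466-101367715 (plus strand) for G6pc.
Pck1: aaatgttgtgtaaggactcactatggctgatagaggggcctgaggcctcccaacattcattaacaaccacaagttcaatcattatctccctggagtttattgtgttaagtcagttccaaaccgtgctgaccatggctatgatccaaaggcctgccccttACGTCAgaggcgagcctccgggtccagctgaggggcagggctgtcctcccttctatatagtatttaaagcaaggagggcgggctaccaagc
Slc37a4: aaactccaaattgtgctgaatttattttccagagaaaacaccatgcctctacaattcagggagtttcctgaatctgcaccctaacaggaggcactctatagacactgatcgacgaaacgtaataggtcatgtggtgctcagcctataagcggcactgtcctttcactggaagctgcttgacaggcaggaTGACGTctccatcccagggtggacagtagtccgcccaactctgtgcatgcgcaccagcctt
G6pc: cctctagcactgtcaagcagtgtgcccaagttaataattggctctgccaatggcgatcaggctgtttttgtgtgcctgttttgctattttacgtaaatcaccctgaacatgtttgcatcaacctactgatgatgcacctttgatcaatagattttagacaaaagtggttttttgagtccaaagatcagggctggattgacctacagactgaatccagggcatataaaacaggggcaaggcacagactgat
The Pck1 match lay on the plus strand, 91 to 86 bases before the start, and the Slc37a4 match on the minus strand, 61 to 56 bases before the start. Of the 7 genes with a promoter window these 2 held ACGTCA, and the windows of G6pc, Got1, Pcx, Fbp1 and Glud1 did not. Among 32851 promoter windows of the same length, searched on both strands, 6.47% held ACGTCA. None of the promoter windows found for 7 of the 8 genes held the forkhead letters GTAAACA (3.17% of all windows), the HNF4 letters CAAAGTCCA (0.384%) or the HNF1 motif (0.0609%). A match is a description of letters and not of binding.

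Array medians lay between 3.85 and 4.01 on the log2 scale. Umod, the targeted gene, read between 5.27 and 6.74 in wild-type arrays and between 3.68 and 5.27 in knockout arrays, a fitted log2 difference of -1.52 ± 0.24 (SE). At 5.27, knockout replicate 5 overlapped with the low wild-type arrays, and the labels do not place this probe set inside or outside the deleted part of Umod. Of 13 measured S3 markers, 10 were above the median probe set of every array, among them Slc7a13, Slc22a7 and Cyp7b1, while Slc7a12, Slco1a6 and Slc22a30 were not. Some markers of other cells also read above every array median: 9 of 12 S1 and S2 markers and 9 of 11 thick ascending limb markers. So did 7 of 13 distal and collecting duct, 6 of 8 endothelial, 4 of 8 fibroblast and pericyte, 3 of 9 immune, 2 of 7 thin limb and 2 of 5 podocyte markers. An array median is not a detection limit, and the share of all probe sets above every array median was not computed. These counts therefore do not show which cell types were present. In bulk samples, fewer cells of a type and less RNA per cell cannot be told apart.

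No gene of the pathway passed the test between genotypes. With limma (genotype and batch as terms, Benjamini-Hochberg adjustment over all 41345 probe sets) 0 of the 8 genes and 0 of all probe sets (0%) had an adjusted p under 0.05. The targeted Umod did not pass either, with an unadjusted limma p of 6.816e-05 and an adjusted p of 0.2805. At an unadjusted p under 0.05 there were 2 of the 8, against 2546 probe sets or 6.16% of all, and 6.66% of the 12711 genes whose probe set lay above the median probe set. Those 2 lay at the ends of the path and differed in opposite directions: Slc38a3, where glutamine enters, was higher in knockout arrays by 0.68 on the log2 scale, and G6pc, where glucose is released, was lower, with a fitted difference of -1.01. Since the 8 genes were chosen with earlier results of these data known, this count of 2 is a description. The count of 2 depended on the settings. It was 1 without the batch term or with batch as a random block, where G6pc stood at -0.80 and -0.77. It was also 1 with array weights, with replicate number as a block and without wild-type replicate 1, 3, 4 or 5. It was 0 without knockout replicate 2, 3 or 4 or wild-type replicate 2 and with either marker score as a covariate. The other 6 genes had fitted differences between -0.20 and 0.13. Of the 8, 3 had a positive and 5 a negative fitted difference, with a median of -0.01, beside 50.4% positive and a median of 0.002 over all probe sets. In none of the 8 did the groups separate without overlap, which they did for 0.597% of all probe sets.

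**Figure D1:**
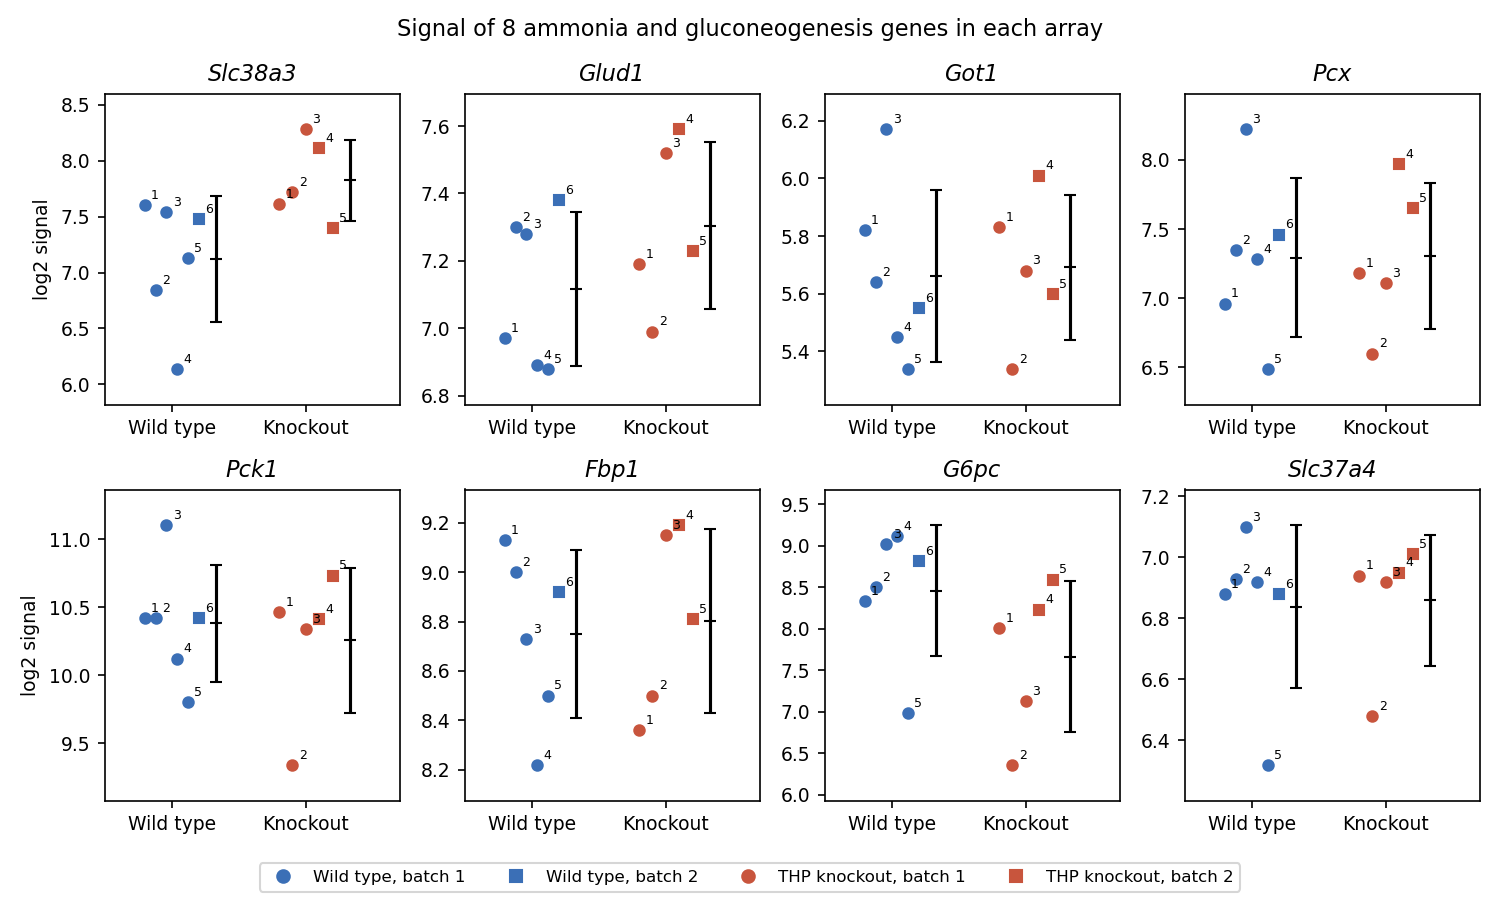
Log2 signal (y axes, a separate scale for each gene) of the 8 genes in each of 6 wild-type and 5 THP knockout arrays, numbered by replicate, with circles for batch 1 and squares for batch 2; black bars are the mean ± SD of each group. The groups overlap in every panel, and the low points of G6pc, Pck1 and Slc37a4 are wild-type replicate 5 and knockout replicate 2.

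At the first step, Slc38a3 (Entrez 76257), the basolateral glutamine carrier, ran from 6.14 to 7.60 in wild-type arrays with a median of 7.305. In order of replicate, the knockout arrays stood at 7.61, 7.72, 8.28, 8.11 and 7.40. All 5 knockout arrays lay above the wild-type median and 4 of them above the highest wild-type array, so the overlap came from knockout replicate 5. Means were 7.12 ± 0.561 (SD, n = 6) and 7.82 ± 0.363 (SD, n = 5). The batch-adjusted log2 difference was 0.68 ± 0.29 (SE), 1.60-fold, with a 95% interval from 0.05 to 1.31. Its unadjusted limma p was 0.0377, its adjusted p 0.788, and permuting genotype inside each batch (exact test, two-sided) gave p = 0.0595. The difference was 0.82 within batch 1 and 0.28 within batch 2, where a single wild-type array stood against 2 knockout arrays.

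Glutamate dehydrogenase, Glud1 (Entrez 14661), which frees ammonium from glutamate, ran from 6.88 to 7.38 in wild-type arrays with a median of 7.125. Knockout arrays read 7.19, 6.99, 7.52, 7.59 and 7.23. Knockout replicates 3 and 4 lay above all wild-type arrays and the other 3 inside their range. The fitted log2 difference was 0.13 ± 0.15 (SE), with a 95% interval from -0.19 to 0.45 and a limma adjusted p of 0.903. Its spread was the smallest of the 8, at 0.71 on the log2 scale between the lowest and the highest array.

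Oxaloacetate can come from aspartate through Got1 (Entrez 14718) and from pyruvate through Pcx (Entrez 18563). Got1 ran from 5.34 to 6.17 in wild-type arrays with a median of 5.595. Its knockout arrays read 5.83, 5.34, 5.68, 6.01 and 5.60. All lay within the wild-type range, and the fitted log2 difference was 0.02 ± 0.18 (SE, 95% interval -0.38 to 0.41). Pcx ran from 6.49 to 8.22 in wild-type arrays with a median of 7.315. Its knockout arrays read 7.18, 6.60, 7.11, 7.97 and 7.65. These too lay within the wild-type range, and the fitted log2 difference was -0.13 ± 0.29 (SE, 95% interval -0.76 to 0.50). Wild-type replicate 3 was the highest array for Got1 and for Pcx, and wild-type replicate 5 the lowest for Pcx. The limma adjusted p was 0.994 for Got1 and 0.957 for Pcx.

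Pck1 (Entrez 18534), which makes phosphoenolpyruvate from oxaloacetate, had the highest mean signal of the 8 probe sets, above 99.6% of all probe sets, although signals of different probe sets are not levels that can be compared. It ran from 9.80 to 11.10 in wild-type arrays with a median of 10.42. Knockout arrays read 10.46, 9.34, 10.34, 10.41 and 10.73. Knockout replicate 2 was below every wild-type array, and the other 4 lay within the wild-type range. The fitted log2 difference was -0.20 ± 0.27 (SE), with a 95% interval from -0.80 to 0.40 and a limma adjusted p of 0.923. Without knockout replicate 2 the difference was 0.07.

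Fructose-1,6-bisphosphatase, Fbp1 (Entrez 14121), ran from 8.22 to 9.13 in wild-type arrays with a median of 8.825. Knockout arrays read 8.36, 8.50, 9.15, 9.19 and 8.81. Knockout replicates 3 and 4 were just above the highest wild-type array and replicates 1 and 2 near the lowest. The fitted log2 difference was -0.01 ± 0.21 (SE), with a 95% interval from -0.47 to 0.44 and a limma adjusted p of 0.996.

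At the last step, G6pc (Entrez 14377), the catalytic subunit of glucose-6-phosphatase in the endoplasmic reticulum, had the widest spread of the 8, at 2.76 between the lowest and the highest array. Wild-type arrays ran from 6.98 to 9.12 with a median of 8.655. Knockout arrays read 8.01, 6.36, 7.13, 8.23 and 8.59. All 5 knockout arrays lay below the wild-type median, but wild-type replicate 5, at 6.98, was lower than 4 of them. Means were 8.46 ± 0.785 (SD, n = 6) and 7.66 ± 0.906 (SD, n = 5). The fitted log2 difference was -1.01 ± 0.42 (SE), 2.01-fold lower, with a 95% interval from -1.93 to -0.08. The unadjusted limma p was 0.0356 and the adjusted p 0.786, and the same exact permutation gave p = 0.0655. The difference was -1.22 within batch 1 and -0.40 within batch 2. Leaving out knockout replicate 2 gave -0.69, and leaving out wild-type replicate 5 gave -1.25.

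Slc37a4 (Entrez 14385), which carries glucose-6-phosphate to that enzyme, ran from 6.32 to 7.10 in wild-type arrays with a median of 6.90. Knockout arrays read 6.94, 6.48, 6.92, 6.95 and 7.01. Outside wild-type replicate 5 and knockout replicate 2, the arrays of both genotypes lay close together, between 6.88 and 7.10. The fitted log2 difference was -0.01 ± 0.16 (SE), with a 95% interval from -0.36 to 0.34 and a limma adjusted p of 0.996. That interval does not contain the fitted difference of G6pc, but the difference between the 2 genes was not tested.

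Markers of tubule segments also differed between the genotypes in fitted value, but none passed after adjustment. The marker lists, too, were chosen with earlier results of these data known. All 12 measured S1 and S2 markers, genes of the earlier convoluted segments, had a lower fitted value in knockout, with a median of -0.39, and 3 of them (Slc22a8 at -1.78, Cyp2d26 at -1.09 and Slc5a12 at -0.63) at an unadjusted p under 0.05. Of the 13 S3 markers 10 were higher, with a median of 0.22, and 2 of them, Slc22a7 at 1.11 and Atp11a at 0.45, at an unadjusted p under 0.05. Of the 11 thick ascending limb markers 9 were higher, with a median of 0.41. Among them Wnk1 at 0.52 and Cldn19 at 0.50 had an unadjusted p under 0.05. The other 2, Sostdc1 (-0.10) and the targeted Umod, were lower. Of the 13 distal and collecting duct markers 9 were higher and 4 lower, with a median of 0.09. Calb1 at 0.76 was the 1 of them at an unadjusted p under 0.05. The limma adjusted p of all these markers other than Umod was at or above 0.586, and that of Umod was 0.2805. Over all probe sets 50.4% were higher in knockout, and at an unadjusted p under 0.05 3.40% were higher and 2.76% lower. Batch 2, with 1 wild-type array, differed in part. There Slc13a3 (0.39), Slc5a2 (0.28), Slc6a19 (0.20), Slc34a1 (0.17) and Slc22a6 (0.11) were higher and the other S1 and S2 markers lower. Of the S3 markers, Aadat (-0.59), Bcat1 (-0.53), Slc22a13 (-0.42), Slc7a12 (-0.31) and Slc22a19 (-0.19) were lower there and the others higher. A score of the 7 S1 and S2 markers outside the pathway, their mean log2 signal, ran from 5.78 to 7.26 in wild-type and from 5.36 to 6.61 in knockout arrays. The S3 score ran from 7.36 to 8.40 in wild-type and from 7.96 to 8.80 in knockout arrays. The thick ascending limb score without Umod ran from 5.36 to 6.02 in wild-type and from 5.66 to 7.45 in knockout arrays, where knockout replicate 4 was the highest. The distal and collecting duct score ran from 4.38 to 4.90 in wild-type and from 4.26 to 5.99 in knockout arrays. Its knockout median was 4.73, and knockout replicate 4 was again the highest.

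G6pc followed the S1 and S2 score closely over the 11 arrays. Pearson's r was 0.973 (permutation p = 1e-05, the smallest that 100000 permutations can give, adjusted p = 0.00026 over the 52 relations computed) and Spearman's rho was 0.955 (permutation p = 6e-05, adjusted p = 0.00312). Without wild-type replicate 5 and knockout replicate 2, the arrays farthest from the median of G6pc, r was 0.922 (permutation p = 0.00029). Within batch 1 r was 0.977 over 8 arrays, among the wild-type arrays 0.979, and after removing genotype and batch 0.959, and batch 2 held too few arrays. With the S3 minus S1 and S2 score as a covariate, the fitted genotype difference of G6pc was -0.12 ± 0.27 (SE, limma adjusted p 0.997) in place of -1.01.

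Slc38a3 followed the S3 score instead. Pearson's r was 0.853 (permutation p = 0.00158, adjusted p = 0.0137) and Spearman's rho 0.655 (permutation p = 0.0331, adjusted p = 0.143), with r = 0.826 within batch 1 and 0.814 after removing genotype and batch. Without wild-type replicate 4 and knockout replicate 3, at the ends of the Slc38a3 range, r was 0.549 (permutation p = 0.129), so the relation rests on those 2 arrays. With the S3 minus S1 and S2 score as a covariate, the genotype difference of Slc38a3 was 0.24 ± 0.29 (SE, limma adjusted p 0.997) in place of 0.68, and adding the score of the thick ascending limb instead gave 0.46 ± 0.30 (SE). The S3 minus S1 and S2 score itself differed between genotypes, with means of 1.26 in wild-type and 2.11 in knockout arrays (batch-adjusted difference 0.93). Adding it also takes out variation that goes with genotype, so the fit cannot separate segment makeup from genotype. The part of segment makeup in the values of G6pc and Slc38a3 was not tested.

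The S1 and S2 score was also related to other genes of the path. Slc37a4 had r = 0.777 with it (permutation p = 0.00886, adjusted p = 0.0409; rho = 0.502, permutation p = 0.118, adjusted p = 0.273), which fell to 0.192 without wild-type replicate 5 and knockout replicate 2, so that relation rests on those arrays. Pcx had r = 0.716 (permutation p = 0.013, adjusted p = 0.0451; rho = 0.755, permutation p = 0.00989, adjusted p = 0.0857), and 0.621 (permutation p = 0.0765) without wild-type replicates 3 and 5. Pck1, at r = 0.712 (permutation p = 0.0154, adjusted p = 0.05002; rho = 0.450, permutation p = 0.169, adjusted p = 0.298), did not pass after adjustment. Within batch 1, r with this score was 0.791 for Slc37a4, 0.759 for Pcx and 0.723 for Pck1.

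Fbp1 also followed the S3 score (r = 0.824, permutation p = 0.00089, adjusted p = 0.0116; rho = 0.861, permutation p = 0.00126, adjusted p = 0.0192), with r = 0.728 without wild-type replicate 4 and knockout replicate 1 and 0.794 within batch 1. Glud1 followed the thick ascending limb score (r = 0.807, permutation p = 1e-05, again the smallest possible, adjusted p = 0.00026; rho = 0.909, permutation p = 0.00023, adjusted p = 0.00598), with r = 0.905 without wild-type replicate 5 and knockout replicate 4 and 0.912 within batch 1. With that score as a covariate the fitted difference of Glud1 was -0.0015.

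**Figure D2:**
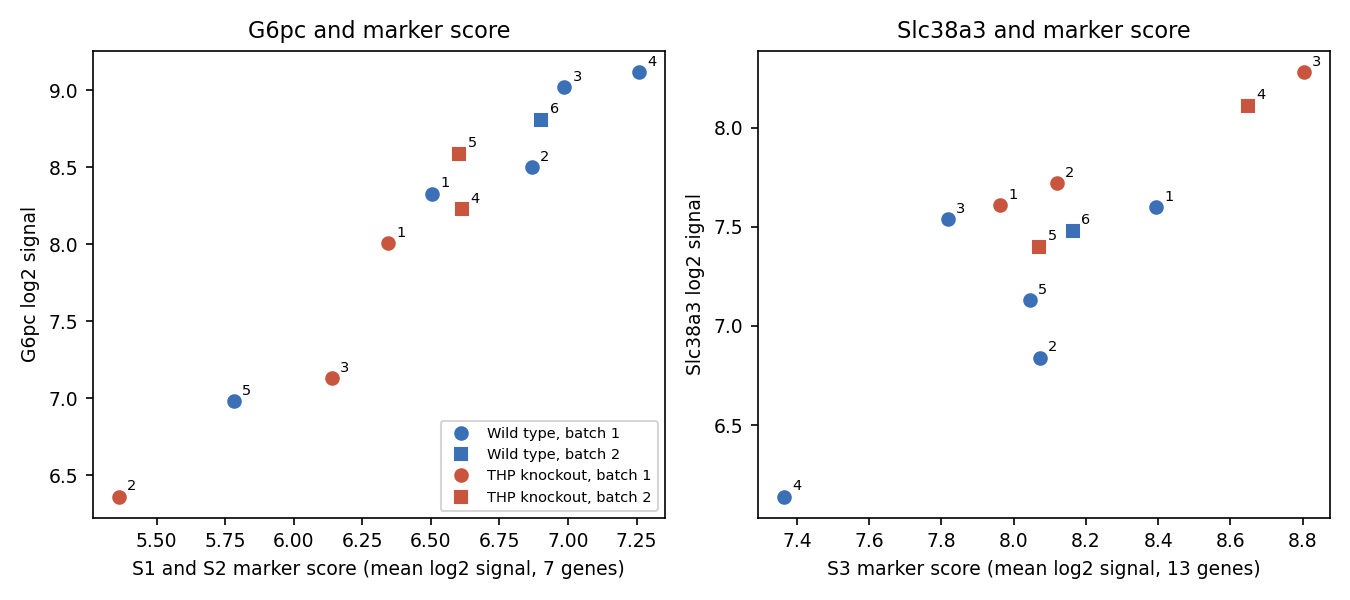
Log2 signal of G6pc against the S1 and S2 marker score (left) and of Slc38a3 against the S3 marker score (right) in each of the 11 arrays, numbered by replicate, blue for wild type and red for THP knockout, circles for batch 1 and squares for batch 2. Arrays of both genotypes lie along 1 line for G6pc (r = 0.973), whereas for Slc38a3 the lowest point is wild-type replicate 4 and the highest is knockout replicate 3.

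**Figure D3:**
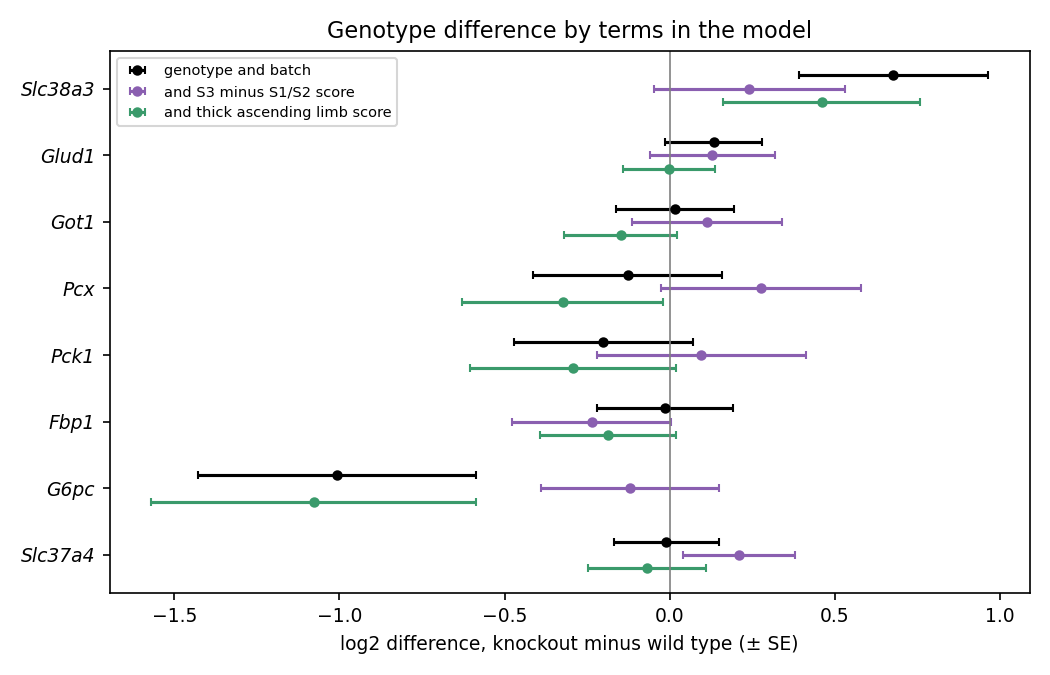
Fitted log2 difference between knockout and wild type (x axis, ± SE) for the 8 genes in pathway order, with genotype and batch in the model (black), with the S3 minus S1 and S2 score added (purple) and with the thick ascending limb score added (green). G6pc moves from -1.01 to -0.12 and Slc38a3 from 0.68 to 0.24 with the S3 minus S1 and S2 score, and Pcx moves from -0.13 to 0.28.

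The 8 genes did not vary as a single block. Of the 28 pairs among them, 9 had a permutation p that passed 0.05 after adjustment, all 9 with a positive Pearson's r. These were 9 of the 10 pairs within a set of 5 genes: Got1, Pcx, Pck1, G6pc and Slc37a4. The set was drawn from these same pairs, so 9 of 10 is a description. The closest pairs were Pck1 with Slc37a4 (r = 0.863, permutation p = 0.00125, adjusted p = 0.013; rho = 0.760, permutation p = 0.00832, adjusted p = 0.0857), Pcx with Slc37a4 (r = 0.830, permutation p = 0.00087, adjusted p = 0.0116; rho = 0.845, permutation p = 0.00148, adjusted p = 0.0192) and Pcx with Pck1 (r = 0.830, permutation p = 0.00187, adjusted p = 0.0139; rho = 0.679, permutation p = 0.0254, adjusted p = 0.12). By Spearman's rho, Pcx with Slc37a4 was the 1 pair that passed after adjustment. Without the 2 arrays farthest from the median of the first gene, 5 of the 9 pairs kept an unadjusted permutation p under 0.05 and 4 did not. Of these 4, r fell from 0.773 to 0.438 for Got1 with Pcx, from 0.755 to 0.453 for Pck1 with G6pc and from 0.771 to 0.298 for G6pc with Slc37a4, so these 3 rest on such arrays, while Pcx with G6pc moved only from 0.732 to 0.624. The S1 and S2 score, described with G6pc, was low in the same arrays as this set. Within batch 1 the closest pairs stood at r = 0.854, 0.850 and 0.879 in the same order. Of the 12703 other genes, 0.323% followed Pck1 as closely as Slc37a4 did, and 0.339% followed Pcx as closely as Pck1 and Slc37a4 each did. Among the 9 pairs this share was largest for Got1 with Slc37a4, at 2.76%.

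Slc38a3, the entry step, had no detectable relation with Pck1 over these arrays (r = 0.10, permutation p = 0.766, adjusted p = 0.869; rho = -0.07, permutation p = 0.839, adjusted p = 0.871), although a p that misses the threshold does not show that they are unrelated. Slc38a3 with G6pc was the only one of the 28 pairs with a negative r, at -0.44 (permutation p = 0.18, adjusted p = 0.292; rho = -0.56, permutation p = 0.0769, adjusted p = 0.222). Wild-type replicate 4 shows the contrast within a single array, with the highest G6pc (9.12) and the lowest Slc38a3 (6.14). Knockout replicate 3 had the highest Slc38a3 (8.28) with a low G6pc (7.13). The marker scores stood at their ends in the same arrays. Wild-type replicate 4 had the highest S1 and S2 score (7.26) and the lowest S3 score (7.36). Knockout replicate 3 had the highest S3 score (8.80). The part of segment makeup in this contrast was not tested. Wild-type replicate 3 was the highest array for Got1, Pcx, Pck1 and Slc37a4, and wild-type replicate 5 or knockout replicate 2 the lowest for all 5 genes of the set, with equal readings for Got1.

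**Figure D4:**
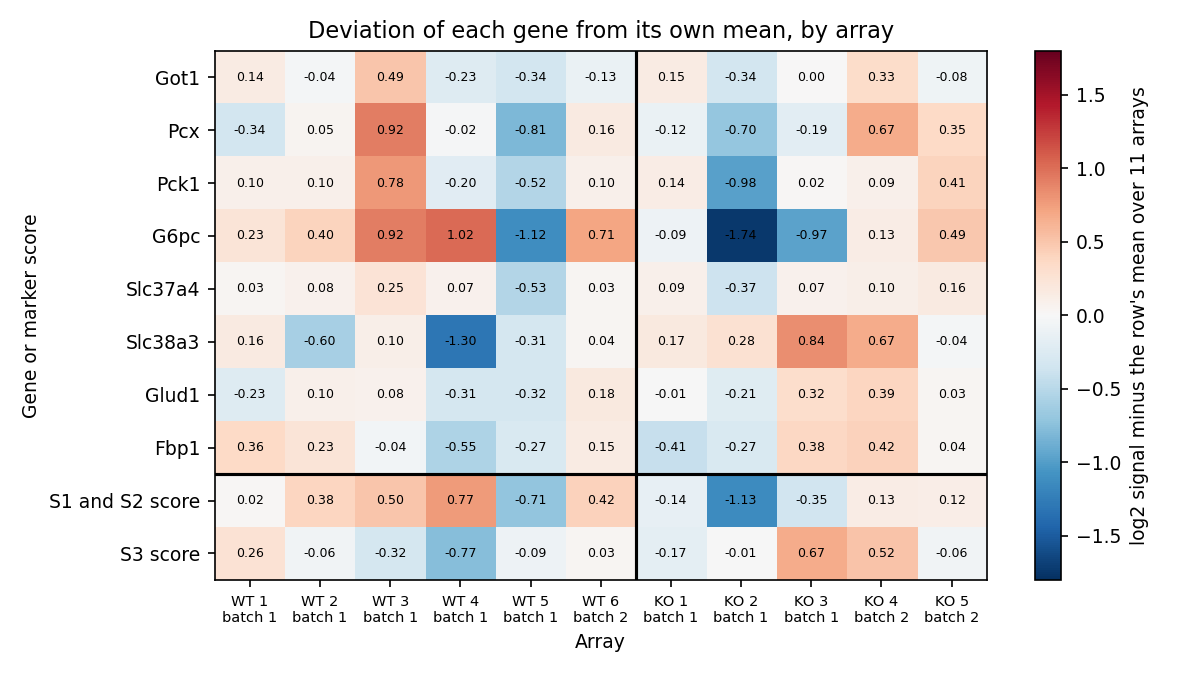
Log2 signal minus the row's own mean over the 11 arrays (colour and printed number) for the 8 genes and for the S1 and S2 and the S3 marker scores, by array, with wild type to the left and knockout to the right of the vertical line. Got1, Pcx, Pck1, G6pc and Slc37a4 are low together in wild-type replicate 5 and knockout replicate 2, while Slc38a3 is lowest in wild-type replicate 4 and highest in knockout replicate 3.

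The genes nearest in pattern to each member, by Pearson's r over the 11 arrays among genes above the median probe set, were named as a description, since they were picked as the closest of 12703. G6pc lay nearest to Acmsd (0.949), an enzyme of tryptophan breakdown, Gpc1 (0.944) and Ppm1h (0.933). Slc37a4 lay nearest to Slc9a3 (0.946), the apical sodium-proton exchanger NHE3, to the phosphate carrier Slc34a1 (0.942) and to Cyp2j13 (0.942). Pck1 lay nearest to Slc25a37 (0.952), a mitochondrial iron carrier, to the potassium channel gene Kcnj15 (0.931) and to Uevld (0.930). Pcx lay nearest to Ppp5c (0.970), Ttr (0.929) and Rnf41 (0.910), and Got1 to Bckdha (0.957), a subunit of the branched-chain keto acid dehydrogenase, Iqsec2 (0.948) and Prr14l (0.941). Slc38a3 lay nearest to Lypd6 (0.991), Gltp (0.963) and Sec63 (0.961), Glud1 to Stx7 (0.968), Fars2 (0.943) and Nlk (0.936), and Fbp1 to Vps41 (0.960), Galnt11 (0.959) and Oaz1 (0.958). None of these neighbours passed the genotype test (limma adjusted p of at least 0.773).

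Around the 8 genes, 105 further genes of the pathway were measured out of 120 listed, and 0 passed over all probe sets (limma adjusted p between 0.586 and 0.998). At an unadjusted p under 0.05, 4 were higher and 2 lower in knockout, against 3.40% and 2.76% of all probe sets. Their median fitted log2 difference was 0.05, with 65 positive and 40 negative. The other listed genes were not analysed here.

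Among 16 genes of glutamine entry and deamidation, 1 was higher at an unadjusted p under 0.05. It was Slc38a2, a sodium-coupled carrier of neutral amino acids known as SNAT2, which ran from 5.08 to 6.18 in wild-type arrays with a median of 5.35. Knockout arrays read 6.40, 6.29, 6.11, 6.90 and 6.29, of which 4 lay above every wild-type array. Its fitted log2 difference was 0.88 ± 0.23 (SE), with an unadjusted limma p of 0.00307 and an adjusted p of 0.616, and it was 0.71 within batch 1 and 1.35 within batch 2. The next by p were the neutral amino acid carriers Slc6a19 (-0.26) and Slc7a8 (0.43) and the cystine carrier subunit Slc7a9 (-0.25), and the median of the list was 0.17.

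Of 17 genes that lead from alpha-ketoglutarate to oxaloacetate, 12 had a positive fitted difference and 0 reached an unadjusted p under 0.05 by limma. The smallest p belonged to Suclg1 (0.23), a succinyl-CoA ligase subunit, Dld (0.42), the dihydrolipoyl dehydrogenase, the malate dehydrogenase Mdh2 (0.25) and the succinate dehydrogenase subunit Sdhb (0.23). Among 9 transaminases and mitochondrial carriers the mitochondrial aspartate aminotransferase Got2 was at 0.40 ± 0.19 (SE), the alanine aminotransferase Gpt2 at -0.33 ± 0.17 (SE), the aspartate-glutamate carrier Slc25a13 at 0.27 and the oxoglutarate carrier Slc25a11 at 0.24, and 0 reached an unadjusted p under 0.05. Got2 stood at 0.40 beside 0.02 for its cytosolic counterpart Got1, a difference that was not tested.

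Among 11 genes of lactate and pyruvate entry, 1 was lower at an unadjusted p under 0.05, the lactate carrier Slc5a12 (-0.63 ± 0.19, SE; limma adjusted p = 0.674), which is also on the list of S1 and S2 markers. Lactate dehydrogenase Ldha (0.25), the lactate carrier Slc5a8 (0.36) and the pyruvate dehydrogenase kinase Pdk4 (-0.20) followed by p. From phosphoenolpyruvate to glucose 7 of 9 genes had a positive value, with the glucose exporter Slc2a2 at -0.30 and the glycolytic and gluconeogenic enzymes Gapdh at 0.20, Pgk1 at 0.37 and Tpi1 at 0.16. None of these 9 reached an unadjusted p under 0.05 by limma. Among 11 genes of the opposing glycolytic steps, the phosphofructokinase Pfkp was at 0.53 ± 0.18 (SE, limma adjusted p = 0.758) with 3 knockout arrays above every wild-type array, the pyruvate kinase Pkm at 0.30, Hk2 at -0.22 and Pfkm at -0.18.

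For ammonium and bicarbonate transport 4 of 10 genes had a positive value, with a median of -0.25. The anion exchanger Slc4a2 was at 0.37 ± 0.14 (SE, limma adjusted p = 0.769), with 4 knockout arrays above every wild-type array. Carbonic anhydrase Car2 was at -0.72 ± 0.36 (SE), the basolateral bicarbonate carrier Slc4a4, also an S1 and S2 marker, at -0.44, and the water channel Aqp1 at 0.37. Among 22 regulators of gluconeogenic genes, 2 had an unadjusted p under 0.05, in opposite directions. Sik1, a kinase that restrains CREB coactivators and is itself induced by cyclic AMP, ran from 6.74 to 7.53 in wild-type arrays with a median of 7.18. Its knockout arrays read 8.18, 7.50, 7.87, 7.42 and 7.42, of which 2 lay above every wild-type array, for a log2 difference of 0.64 ± 0.16 (SE, limma adjusted p 0.586). The glucocorticoid receptor Nr3c1 was at -0.35 ± 0.13 (SE, limma adjusted p = 0.761), at -0.48 within batch 1 and with no difference in batch 2 means. Creb1 was at 0.24 and Irs1 at 0.39.

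**Figure D5:**
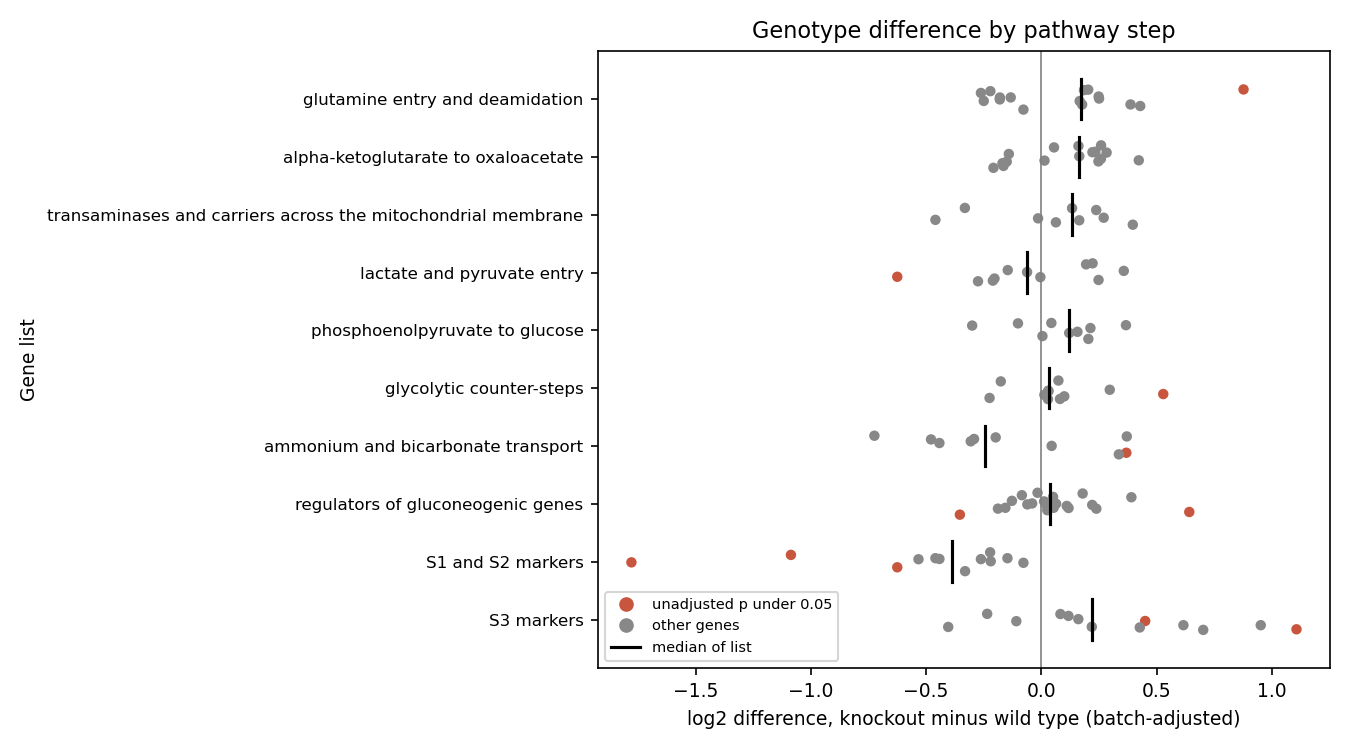
Batch-adjusted log2 difference between knockout and wild type (x axis) for each measured gene of the pathway lists and of the 2 proximal segment marker lists, with a black line at each list's median and red points at an unadjusted p under 0.05. Medians of the pathway lists lie between -0.25 and 0.17, while all 12 S1 and S2 markers lie below 0.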

How the data were processed

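The authors deposited log2 probe set signals; per the submitters' processing notes Partek 6.6 and RMA were used, and RNA was extracted with the PicoPure kit and labelled with the WT Pico kit, per the labels' protocols. RMA draws array distributions together, and the genome build, filters and any batch correction are not given in the sources used here. No detection values were used. Per gene, the probe set annotated with that symbol alone and with the highest mean was kept (23521 probe sets carried 1 symbol, 1814 several, 16010 none). limma 3.58.1 in R 4.3.3 was fitted to all probe sets with genotype and batch as terms and 8 residual degrees of freedom, and was tested on simulated data. For single genes, genotype was also permuted exactly inside batches (168 arrangements, two-sided). Correlations used 100000 permutations and Benjamini-Hochberg adjustment over 52 relations. These permutations shuffled arrays freely across genotypes and batches, so their p-values treat all arrays as exchangeable. The r after removing genotype and batch was given without a p. Named beyond the 8 genes were Umod, the 4 genes of each pathway list with the smallest p and the 3 nearest genes of each member, without predicted genes; marker genes are named as examples. The members and lists were chosen with earlier results of these data known. Array number limits the precision. Replicate numbers did not pair arrays. The alternatives tried were other batch terms, scaling, priors, array weights, a filter on dim probe sets, marker covariates and leaving out arrays. Promoter sequences are from RefSeq and matched 7 of the 8 genes. Python 3.11.15 and matplotlib 3.10.9 drew the plots.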

Additional observations from a re-analysis of the deposited data

Results flagged for a closer look

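Arrays that stood apart from the rest of their group, by the gap to the nearest array as a share of the group's range, were found in 6 of 82 groups checked (41 named genes in 2 genotypes), where chance gives about 1 in 20. Wild-type replicate 5 was the low array for G6pc (6.98 against 8.33 for the next, share 0.631), for Slc37a4 (6.32 against 6.88, share 0.718) and for Slc4a4 (7.44 against 8.51, share 0.804). Knockout replicate 2 was the low array for Pck1 (9.34 against 10.34, share 0.719) and for Slc37a4 (6.48 against 6.92, share 0.830). Wild-type replicate 4 was the high array for Hk2 (4.20 against 3.76, share 0.746). Wild-type replicate 5 and knockout replicate 2 also had the lowest S1 and S2 scores, 5.78 and 5.36.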

How the results depend on the processing

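Slc38a3 kept a positive and G6pc a negative sign under all 22 other settings, but their sizes ranged from 0.24 to 0.82 and from -1.45 to -0.12 over the settings other than leaving out arrays, nearest 0 with the S3 minus S1 and S2 score. Neither passed the adjusted threshold in any of the 22 (adjusted p from 0.623 for Slc38a3 and from 0.669 for G6pc). Leaving out each array gave 0.50 to 0.82 for Slc38a3, -1.25 to -0.69 for G6pc and 0.03 to 0.21 for Glud1. Values near 0 changed sign, without passing a threshold: leaving out each array gave -0.17 to 0.10 for Fbp1, -0.0673 to 0.13 for Got1, -0.33 to 0.0668 for Pck1, -0.30 to 0.0572 for Pcx and -0.10 to 0.10 for Slc37a4. Without the batch term Pcx was 0.0087, Fbp1 0.052 and Slc37a4 0.0217, and with batch as a random block 0.0235, 0.0591 and 0.0252. Got1 was -0.0673 in batch 1 alone, -0.0311 after quantile normalization and -0.15 with the thick ascending limb score, where Glud1 was -0.0015. After median centring Fbp1 was 0.0085 and Slc37a4 0.0108, and with array weights Slc37a4 was 0.0177. With the S3 minus S1 and S2 score Pcx was 0.28, Pck1 0.10 and Slc37a4 0.21. The cause of these shifts was not tested.

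Same-numbered arrays deviated with correlations from -0.181 to 0.012, so the numbers do not pair them. With the replicate block Got1 was -0.26, Slc38a3 0.54 and G6pc -1.45, and pathway genes at an unadjusted p under 0.05 numbered 2 higher and 8 lower, with 0 probe sets past the threshold. Beside the 4 higher and 2 lower pathway genes, 1 was lower without the batch term and 1 with batch as a random block, 4 were lower after quantile normalization and 4 with the thick ascending limb score, and 2 were higher and 0 lower with the S3 minus S1 and S2 score. Leaving out each array gave 4 to 8 higher (8 without knockout replicate 5) and 1 to 5 lower (5 without wild-type replicate 5, 4 without knockout replicate 3, 1 without knockout replicate 2). Probe sets past the adjusted threshold numbered 3 in batch 1 alone, 4 at an adjusted p of 0.1 and 0 to 11 when each array was left out (11 for the removal of knockout replicate 5, 3 for wild-type replicate 6, 2 for knockout replicate 3 and 1 for wild-type replicate 1), and none of these was one of the 8 genes. Each of the 8 has a single probe set annotated with its symbol alone, so no other such probe set could be tried.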
